A study of Oryza longistaminata with 9 samples.

Results

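The deposited gene table of *Oryza longistaminata* anthers lists 46327 gene models, and 4296 of them carry no gene biotype. These 4296 models, called unclassified models below, were taken as every row whose biotype field is a dash. All of them share 1 identifier prefix, which 0 of the 42031 rows with a biotype have. The other rows are mainly the 40745 protein-coding models of the reference.

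*O. longistaminata* is a wild rice from Africa that is largely self-incompatible. RNA-seq was made from isolated anthers of this 1 species, sampled by spikelet length, and no treatment is named. The first group, Ls-4mm, holds 3 libraries from 4-mm spikelets, when primary sporogenous cells are produced, and the second, Ls-6mm, holds 3 libraries from 6-mm spikelets, when microspore mother cells lie against the tapetum. A later stage, Ls-8.5mm, was not analysed here. No source used here says if replicate libraries were made from different plants, and the p-values therefore cover the spread among libraries only, which may be technical.

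When reads are assembled against a reference genome, transcripts that fall outside its annotation are added as extra models. Such models can be long noncoding RNAs, transposable elements, untranslated ends of nearby genes, or protein-coding genes that the annotation missed. In plants, anthers are known for genes that are transcribed only there, in particular in the tapetum, the nurse layer that feeds the pollen mother cells and builds the pollen wall. The present data hold no test that separates these kinds, and the models are described by what the table gives: length, position, neighbours, predicted protein domains and read counts.

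Libraries of Ls-4mm held 14509449 to 16684146 counts, and those of Ls-6mm 17076800 to 21232663. Replicates of 1 stage differed by more than counting noise (chi-square per degree of freedom 2.10 to 3.65), so no library was a copy of another. Words for tapetum and pollen wall products matched 131 annotated genes, of which 58 rose and 6 fell, and their summed level was 871 to 987 CPM (counts scaled to a common library size) in the libraries of Ls-4mm, against 9210 to 9741 CPM in those of Ls-6mm. Words for meiotic genes matched 11, of which 10 were detected. Of 9 tested, 2 rose and 5 fell, and the sum was 449 to 474 CPM and 200 to 212 CPM in the same order. Genes matched by both lists were thus read in both stages. The words name gene families, and it was not tested if their genes are particular to anther cells. Words for green tissue matched 26 genes, all detected, of which 21 rose and 3 fell, and whose sum was 1754 to 2039 CPM and then 4292 to 4418 CPM. Laccases, taken for lignifying tissue, had 6 of 10 genes detected and summed to between 1.496 and 3.001 CPM and then between 72.2 and 76.1 CPM. The part of these other tissues in the results on unclassified models was not tested.

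The unclassified models were spread over the whole genome. All 12 chromosomes carried them, with 3989 models between them, and the other 307 lay on 249 unplaced sequences. Chromosome 1 held the most, 482, and chromosome 9 the fewest, 201. Set against the protein-coding models of the same chromosome, their number was lowest on chromosome 3, with 8.50 per 100, and highest on chromosome 12, with 13.2 per 100, followed by chromosome 6 with 12.9 and chromosome 8 with 12.5. The plus strand held 2221 and the minus strand 2075. Positions are given as the table lists them; the study names an *O. longistaminata* genome sequence as its reference, whereas the annotated identifiers are of the *O. sativa* subsp. *indica* type, so the assembly behind the positions is uncertain.

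They were about as long as annotated genes. Their median transcript length was 887.5 bases (quartiles 529 and 1522.25, range 200 to 14695), and that of protein-coding models was 912 bases (quartiles 504 and 1461). No unclassified model was shorter than 200 bases, whereas 538 protein-coding models were. The lengths differ in kind, however. Every protein-coding length was a multiple of 3 (100%), as for coding sequence without untranslated regions, and 32.0% of the unclassified lengths were. In 1489 unclassified models (34.7%) the length equalled the span on the chromosome, so the model was 1 uninterrupted block, and 30.1% of protein-coding models were of this form. The remaining 2807 had gaps such as introns leave, and their median span was 1936 bases.

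Long spans were more frequent among unclassified models: 27 (0.628%) reached over 20000 bases, against 42 protein-coding models (0.103%). The longest, a 691-base model spread over 334244 bases of chromosome 5 (16236990 to 16571233), bridged 22 annotated genes. It had 5.46 ± 1.23 CPM at first and 4.49 ± 0.629 CPM in Ls-6mm (SD, n = 3 here and below), and the stages did not differ in edgeR's quasi-likelihood test (adjusted p = 0.150).

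Almost all unclassified models lay between annotated genes. An annotated gene was found on the same sequence for 4112 of them, and for 4069 the nearest row with a biotype was protein-coding; 184 models were alone on their sequence. Only 16 (0.389%) overlapped an annotated gene, 8 on its strand and 8 on the other, and in all 16 the unclassified model enclosed the whole neighbour. Among protein-coding models 634 (1.61%) overlapped another annotated gene. The median gap to the nearest annotated gene was 2153 bases (quartiles 698 and 5312, largest 56688), and for protein-coding models 1963 bases (quartiles 977 and 4058). Both ends of this range were fuller in the unclassified models: 1281 lay within 1000 bases of an annotated gene and 1081 beyond 5000 bases. Gaps under 100 bases were found for 313 models and under 10 bases for 96. Because annotated models end at the coding sequence, a gap of this size can fall inside an untranslated region. No test was applied to these descriptions of position.

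**Figure D1:**
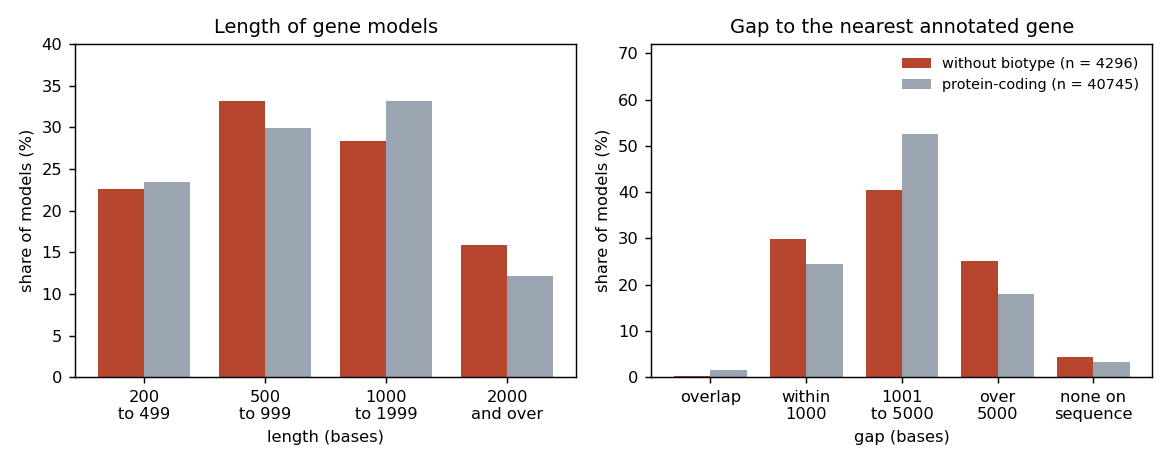
Share of gene models (%) by length in bases (left) and by gap in bases to the nearest annotated gene (right), for the 4296 models without biotype and the 40745 protein-coding models, of which 538 shorter than 200 bases are not drawn on the left. The length classes are similar, while the gap classes within 1000 and over 5000 bases hold a larger share of the models without biotype, and the class between them a smaller one.

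Unclassified models also lay on each other. In 333 pairs, with 642 members, the spans overlapped on opposite strands, and in 32 pairs they overlapped on the same strand. It is not stated whether reads were counted by strand, so for such pairs the reads of both partners cannot be told apart, and their values are uncertain.

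Reads were found for 2989 unclassified models (69.6%), close to the 71.9% of protein-coding models, and 1307 had no read in any of the 6 libraries. A single library of Ls-4mm detected 2338 to 2369 of them, and one of Ls-6mm 2436 to 2507. Most detected models, 2416, had reads in both stages. Reads in only 1 stage were found for 203 models in Ls-4mm and 370 in Ls-6mm, and the median of these was 3 counts over a whole stage, a depth at which absence from the other stage cannot be shown: a total of 0 still allows 3 counts in the stage as a whole, equal to 0.0605 CPM for Ls-4mm and 0.0563 CPM for Ls-6mm, by counting error alone.

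Together they made a small and steady part of the anther transcriptome. Their share of all counts was 1.56%, 1.46% and 1.49% in the libraries of Ls-4mm and 1.46%, 1.45% and 1.46% in those of Ls-6mm. The stages overlapped at 1.46%, with means of 1.502 ± 0.0485% and 1.46 ± 0.00598%. In the FPKM values of the table, which are scaled by length and depth, the share was 1.21 ± 0.0471% and 1.24 ± 0.00289%. The 10 highest models held 10.8% of the unclassified counts in each library of Ls-4mm, and 12.97 to 13.3% later. Few were abundant: 396 reached 10 CPM in a stage and 28 reached 100 CPM.

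Most tested unclassified models differed between the stages, and with calls at any fold change more of them fell than rose. Enough reads for the test were present for 1568 (36.5% of all 4296; 54.1% for protein-coding models), and only for these can a change be given. Of the 1568, 408 rose towards Ls-6mm (26.0%), 611 fell (39.0%) and 549 were not called. The background over all 23691 tested genes was 80.6% called, with 42% higher and 38.6% lower. The share lower in unclassified models is thus near the background, and the share higher is below it. CPM values did not overlap between the stages in 1052 unclassified models (67.1%), against a background of 81.7%, and 976 (62.2%) were both called and free of overlap, against 78.8%. The median log2 fold change was -0.19 in tested unclassified models and 0.06 in tested protein-coding models. With scaling by library size alone the unclassified values moved by -0.14 (median), so the direction of small changes depends on the scaling.

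Sizes of change were wide. The median log2 fold change was 1.45 in models that rose and -0.98 in models that fell, beside 1.25 and -0.79 in protein-coding models. Called rises of at least 4-fold were seen in 150 of the 1568 tested unclassified models and falls in 85, beside 3304 and 779 of 22063 tested protein-coding models. Of all 1019 called models, 202 changed by less than 1.5-fold. The stricter limit of a false discovery rate of 0.001 or less and a change of 2-fold or more was met by 230 higher models (14.7% of those tested; background 23.6%) and 224 lower models (14.3%; background 13.3%). Falls thus outnumbered rises in calls at any fold change, but not at 4-fold or at the stricter limit. Among the tested models, 48 had no count in Ls-4mm and 11 had none in Ls-6mm. Such models passed the filter on low counts through 1 stage alone and had to differ.

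Level was lower in unclassified models, with a median of 2.73 CPM among those tested against 17.0 CPM in protein-coding models. The shares called also differed within classes of level. Under 1 CPM, 55.3% of 313 unclassified models were called, with 24.0% higher and 31.3% lower, and 69.9% of 1513 protein-coding models, with 52.2% higher and 17.6% lower. At this level a model can pass the filter on low counts through its higher stage alone, so these shares are partly shaped by the filter. Called models there had a median absolute log2 fold change of 2.10 (unclassified) and 2.85 (protein-coding), against 0.63 and 0.75 at 10 CPM and over. From 1 to 10 CPM the unclassified shares were 25.5% higher and 37.7% lower, and the protein-coding ones 45.1% and 30.2%. At 10 CPM and over they were 29.5% and 49.7% for 332 unclassified models and 41.2% and 45.4% for 13407 protein-coding models. No test was applied to these differences, which are descriptions of models that are not independent of each other.

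**Figure D2:**
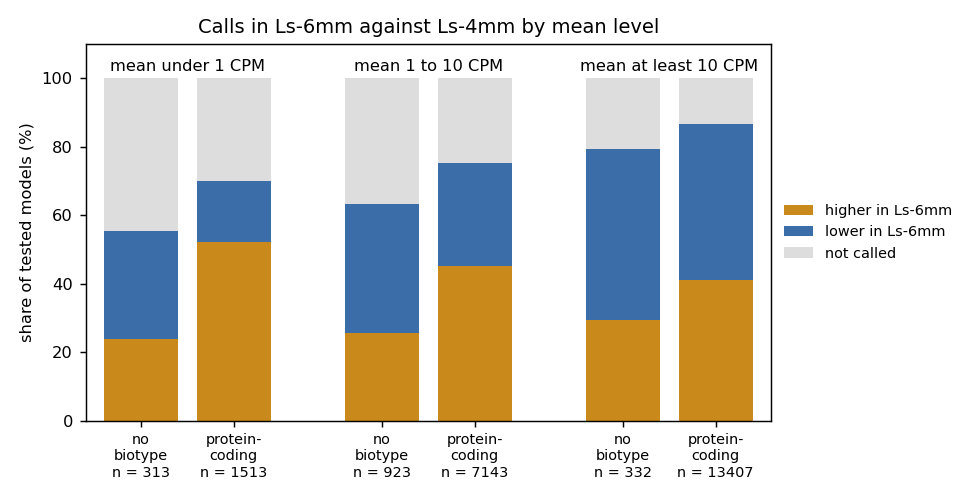
Share of tested models (%) called higher in Ls-6mm, called lower or not called, in 3 classes of mean CPM, for models without biotype and protein-coding models (n under each bar). In every class the part called higher is smaller in models without biotype, 24.0% against 52.2% under 1 CPM and 29.5% against 41.2% at 10 CPM and over. The shares under 1 CPM are partly shaped by the filter on low counts.

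The longest models fell more often than they rose in both kinds. Of 351 tested unclassified models of 2000 bases and over, 20.8% rose and 50.4% fell, and of protein-coding models of that length 31.7% rose and 52.0% fell. In the 3 shorter classes 26.1%, 26.7% and 28.7% of unclassified models rose and 30.7%, 36.3% and 36.7% fell. Models of 1 block gave 129 rises (30.2%) and 142 falls (33.3%) among 427 tested, and models with gaps 279 (24.5%) and 469 (41.1%) among 1141. In protein-coding models the shares were 54.0% and 27.4% for 1 block and 40.9% and 41.0% with gaps. The share that rose was thus larger in 1-block than in gapped models of both kinds. Among unclassified 1-block models, falls still outnumbered rises. Chromosome 7 had 34 rises and 28 falls of 90 tested unclassified models, where 41.6% of protein-coding models rose and 39.1% fell, and chromosome 9 had 9 and 25 of 58, where 45.2% and 37.97% did.

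The most abundant unclassified model of Ls-4mm was not called. This model of chromosome 3 (7219246 to 7222622, plus strand, 3259 bases) had 294.02, 241.08 and 242.49 CPM in Ls-4mm and 254.97, 229.60 and 249.18 CPM in Ls-6mm. The libraries of the stages overlap, and edgeR gave a log2 fold change of -0.08 (SE 0.06, adjusted p = 0.228). SE here and below is derived from the test statistic and can be too small where a stage has few counts. It was called, always as lower, with library size only (-0.22, adjusted p = 0.00381), with no filter on low counts (-0.10, 0.0480) and without replicate 2 of Ls-4mm (-0.14, 0.0497). The nearest annotated gene, BGIOSGA012169, 1865 bases upstream on the same strand, was far lower, at 2.79 and 6.65 CPM.

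Models ranking next to it rose. A 2720-base model of chromosome 4 (32389475 to 32395695, plus strand) had 194.76, 202.25 and 207.69 CPM in Ls-4mm and 350.13, 348.54 and 352.62 CPM in Ls-6mm, which made it the highest unclassified model of Ls-6mm (log2 fold change 0.80, SE 0.04, adjusted p = 2e-12). Its neighbour BGIOSGA017262, an auxin-responsive protein, one of the nuclear repressors or small proteins that auxin induces, lay 3737 bases away at 1.05 and 1.89 CPM. A 695-base model of chromosome 1 (17917773 to 17918709) had 197.03, 209.46 and 207.98 CPM and then 306.17, 285.03 and 285.24 CPM (0.51, SE 0.04, adjusted p = 3.72e-09). Per length this was the highest of all unclassified models, with a mean of 347 FPKM and rank 416 among all genes of the table. It stood 20767 bases from BGIOSGA001590, which had 2 counts in all. The 4012-base model of chromosome 5 (2808834 to 2818304) rose from 183.8 ± 4.44 to 225.9 ± 4.28 CPM (0.30, SE 0.04), whereas an 827-base model of chromosome 8 (8668388 to 8669801) fell from 171.3 ± 3.21 to 107.7 ± 1.13 CPM (-0.67, SE 0.04), with no overlap between stages in either.

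Chromosome 2 carried the model with the largest rise among the most abundant ones. This uninterrupted 957-base model (36482604 to 36483560, minus strand) had 38.83, 36.06 and 35.81 CPM in Ls-4mm and 278.15, 260.59 and 280.26 CPM in Ls-6mm (log2 fold change 2.89, SE 0.05, adjusted p = 2.89e-18). It ended 7 bases from the end of BGIOSGA009241, which encodes a GATA zinc finger, a DNA-binding domain of transcription factors, and which rose from 54.6 ± 5.98 to 196 ± 2.26 CPM (1.84, SE 0.06). Both partners thus rose, on opposite strands and tail to tail.

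A set of 24 of the 4296 unclassified models was nearly silent in Ls-4mm, under 1 CPM, and reached 10 CPM or more in Ls-6mm. Protein-coding models of this kind numbered 501 of 40745. The reverse pattern was met by 0 unclassified and 10 protein-coding models. These limits were chosen after the values were seen, so the set is described without a test. The 24 had a median of 20.3 CPM in Ls-6mm, and 8 of them had no count in Ls-4mm. On chromosome 12, which held 282 of all unclassified models, lay 5 of the set. The nearest annotated gene was tested for 12 of the 24 and was higher in Ls-6mm in 10 and lower in 2. Of all tested genes 42% were higher and 38.6% lower, and 12 neighbours are too few to read a share from.

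The highest of these in Ls-6mm lay on chromosome 12, with another of the set near it. A 672-base model on the plus strand (21255385 to 21256151) had 0 counts in each library of Ls-4mm and 145.11, 144.26 and 145.14 CPM later, at least 2396-fold higher when 3 counts are allowed over the 3 libraries of Ls-4mm. A 719-base model on the minus strand (21276155 to 21276968) also had 0 counts in Ls-4mm, and then 99.41, 100.27 and 100.05 CPM, at least 1653-fold higher. The libraries of Ls-6mm were nearly equal in both, and each model had 95 bases of its span outside its length. Upstream of the first, at 615 bases, BGIOSGA037765, an F-box gene of the kind that selects proteins for ubiquitination, went from 0 counts to 1.05 ± 0.112 CPM. The neighbour of the second, BGIOSGA035870, a gene of unknown function, had 1 count in all. Farther along, a 3382-base model (21691000 to 21694486) had 0 counts and then 29.27, 27.39 and 34.83 CPM, at least 505-fold higher, next to BGIOSGA037792, which fell (-0.57).

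On chromosome 3, a 1169-base model (34369319 to 34370954, plus strand) had 1, 0 and 0 counts in Ls-4mm and 85.31, 87.55 and 92.93 CPM in Ls-6mm, a ratio of 4392 with a 95% counting interval of 788 to 173495. A 788-base model of the same chromosome (29365274 to 29366642) had 3 counts in Ls-4mm and 105.26, 104.65 and 105.95 CPM in Ls-6mm (ratio 1741, interval 595 to 8444). Its nearest annotated gene, 16350 bases away, was BGIOSGA010130, an rRNA N-glycosidase, an enzyme class that inactivates ribosomes, and it rose by 9.76 on the log2 scale. Chromosome 1 gave a 1418-base uninterrupted model (21306581 to 21307998) with 0 counts and then 28.73, 26.36 and 23.89 CPM, at least 436-fold higher. These 3 models belong to the set chosen for under 1 CPM in Ls-4mm and 10 CPM or more in Ls-6mm. Their separation between the stages was therefore set by that choice.

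Of the 24 models, 2 carried a predicted domain. A 1370-base model of chromosome 1 (8704110 to 8705479) had a DUF1618 domain, of unknown function, and went from 1 count to 21.6 ± 1.46 CPM (ratio 1064, interval 191 to 42059). The gene 2071 bases from it, BGIOSGA002011, has the same domain and also rose. A 2626-base model of chromosome 4 (15220207 to 15223225) had a multicopper oxidase domain, found in laccases and ascorbate oxidases, and went from 0.237 ± 0.211 to 27.0 ± 1.43 CPM (log2 fold change 6.76, SE 0.21). The sum over annotated laccases was also higher in Ls-6mm, and their part in this value was not tested. One more model, the 5927-base block of chromosome 7 (5917391 to 5923317), went from 0.119 to 14.1 ± 0.653 CPM and lay 14542 bases from the cellulose synthase gene BGIOSGA024623, which rose by 2.79 on the log2 scale.

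**Figure D3:**
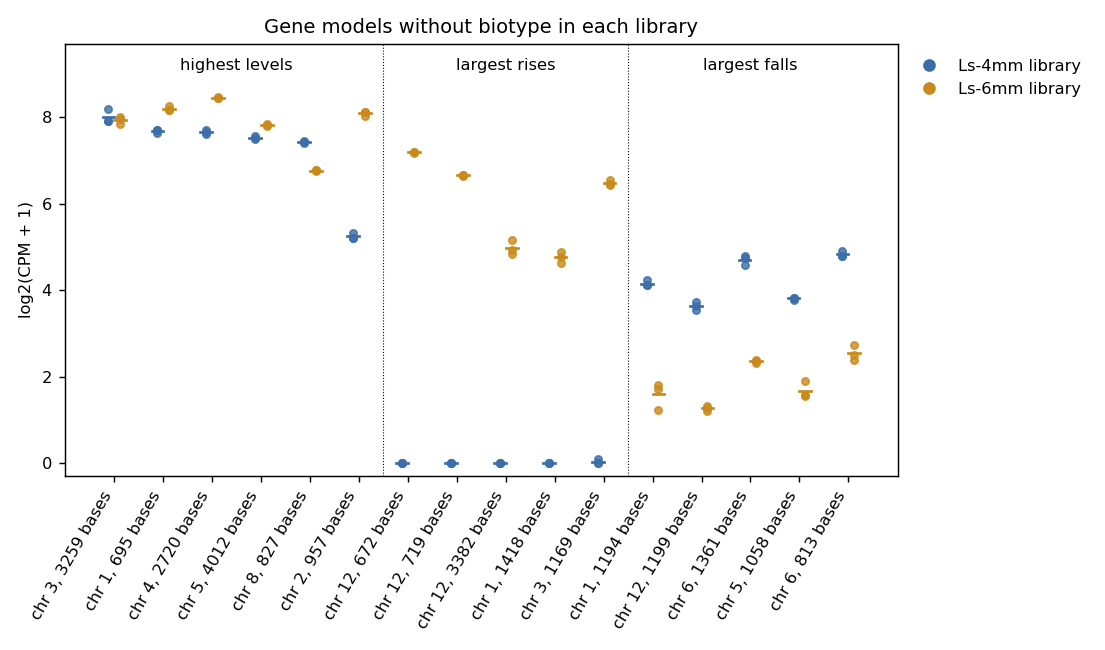
Level of single models without biotype in each library, as log2(CPM + 1), named by chromosome and transcript length, for the 5 highest of each stage, the 5 largest rises and the 5 largest falls (points, libraries; short lines, means of 3). The models of the largest rises sit at or next to 0 in Ls-4mm, whereas those of the largest falls keep 1.41 to 4.85 CPM in Ls-6mm.

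The largest falls were less deep than the largest rises. Among models of at least 10 CPM they were met on chromosome 1 (29305820 to 29308462, 1194 bases), with 16.26, 17.71 and 16.43 CPM in Ls-4mm and 2.27, 2.51 and 1.35 CPM in Ls-6mm, and on chromosome 12 (3364266 to 3367870, 1199 bases), with 12.23, 11.37 and 10.58 CPM and then 1.31, 1.43 and 1.47 CPM. Both had a log2 fold change of -3.01 (SE 0.16). BGIOSGA001119, an ADP,ATP carrier that exchanges these nucleotides across a membrane, lay 7511 bases from the first and fell by 0.54, and BGIOSGA036583, 3004 bases from the second, fell by 2.26. The next were a 1361-base model of chromosome 6 (25.2 ± 1.91 to 4.10 ± 0.0954 CPM, -2.62), a 1058-base block of chromosome 5 (13.05 ± 0.258 to 2.20 ± 0.437 CPM, -2.58) and an 813-base model of chromosome 6 (27.6 ± 1.43 to 4.85 ± 0.743 CPM, -2.51). Lack of overlap between the stages was a condition for choosing these 5 models, not a result.

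Several abundant models showed no call. A 3396-base model of chromosome 4 (13831960 to 13835463) had 121.2 ± 4.96 and 122.3 ± 6.47 CPM (log2 fold change 0.01, SE 0.05), a 2138-base model of chromosome 5 (15133258 to 15138209) 117.3 ± 3.84 and 115.2 ± 4.61 CPM (-0.02, SE 0.04), a 6769-base model of chromosome 2 (5990076 to 6002979) 101.9 ± 3.42 and 105.9 ± 3.27 CPM (0.06, SE 0.04) and a 1062-base model of chromosome 2 (12341390 to 12343239) 85.6 ± 7.81 and 86.4 ± 2.08 CPM (0.01, SE 0.06). With library size alone, the 3396-base and 1062-base models turned to -0.12 each and were called, and the 2138-base model was called at -0.16, while the 6769-base model was called at 0.12 with at least 10 counts in every library. The 3396-base model stood 711 bases from BGIOSGA016155, a terpene synthase gene, an enzyme of terpenoid scaffolds, which had 2 counts in all.

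Protein domains were predicted in 146 unclassified models, and 111 of these had reads. Of 74 that were tested, 21 rose and 32 fell (71.6% called; background 80.6%). Domain-bearing models were longer, with a median of 1603 bases. In 53 the description named a transposable element product, by words chosen after the descriptions were seen. Such elements move by a transposase, or copy themselves through reverse transcriptase, and plants usually keep them silent by DNA methylation. Of these 53, 41 had reads and 28 were tested, with 11 higher and 12 lower (82.1% called, near the background) and a median log2 fold change of -0.01, so there was no common direction. The other 93 models with a domain had 46 tested, 10 higher and 20 lower.

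Within the element classes, members of 1 reverse transcriptase family (PF07727, the type of copia elements) numbered 8. Of 6 tested, 4 rose and 1 fell, where 42% and 38.6% of all tested genes did, and 6 models are too few to read a share from. No library of Ls-4mm held more than 0.195 CPM of any of the 4 risers. They passed the filter on low counts through Ls-6mm alone and had to rise, so their number says nothing about the family. The 5307-base block of chromosome 3 (30871299 to 30876605) had 0.00, 0.06 and 0.18 CPM in Ls-4mm and 4.00, 4.58 and 4.42 CPM in Ls-6mm (log2 fold change 5.63, SE 0.40). The 3133-base block of chromosome 4 (2828403 to 2831535) had 0.07, 0.12 and 0.06 CPM and then 2.87, 2.61 and 2.21 CPM (4.87, SE 0.41). A 3296-base block of chromosome 2 (5105898 to 5109193), which also has the copia gag domain of the particle shell, had 2 counts in Ls-4mm and 2.21, 1.58 and 1.04 CPM in Ls-6mm (ratio 40.03, interval 10.7 to 336). The risers were silent or nearly so in Ls-4mm and stayed under 5 CPM in Ls-6mm. With so few counts in Ls-4mm, the SE given for them can be too small. Another, of 3378 bases on chromosome 2, rose by 2.49, a 1302-base model of chromosome 5 fell (-1.17, SE 0.35), and the 3931-base model of chromosome 3 was not called (0.11, SE 0.15). Reads of such repeats can be shared with near-identical copies elsewhere, so these values are uncertain.

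Values of other element classes lay on both sides of 0. The transposase family tnp2, of elements that cut and paste themselves, had 2 tested members and both fell, the 2598-base one of chromosome 4 from 4.41 ± 0.0698 to 1.04 ± 0.130 CPM (-2.06, SE 0.21) and the 3153-base one of chromosome 12 from 5.71 ± 0.666 to 3.41 ± 0.518 CPM (-0.75, SE 0.17). The 2 models of the plant transposon protein family fell too (-1.03 and -0.71). A 2106-base model of chromosome 8 with an integrase core, the part that inserts retroelement DNA, fell from 7.82 ± 0.816 to 1.79 ± 0.0639 CPM (-2.13, SE 0.17), and the other tested model with this domain, of 4564 bases on chromosome 9, rose from 4.82 ± 0.541 to 14.3 ± 0.279 CPM (1.57, SE 0.12). On chromosome 1 a 5412-base model (17576226 to 17587131) with helitron helicase domains, of elements that replicate by a rolling circle, was the most abundant of the transposon-type models in Ls-6mm and rose from 31.3 ± 2.38 to 42.7 ± 1.31 CPM (0.45, SE 0.06). The other tested helitron model, of 8203 bases on chromosome 5, fell from 15.5 ± 1.28 to 11.7 ± 0.798 CPM (-0.41, SE 0.10).

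**Figure D4:**
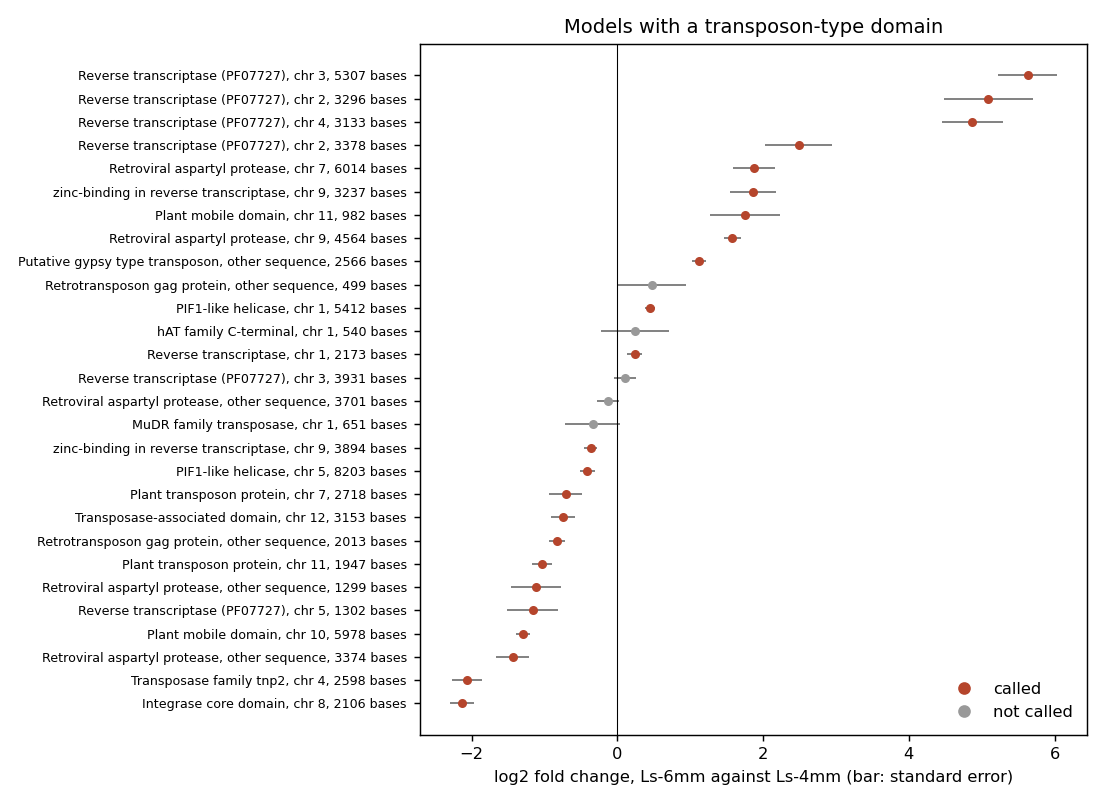
Fitted log2 fold change of the 28 tested models whose description names a transposable element product, by domain, chromosome and length. Bars are the SE derived from the test statistic, which can be too small where a stage has few counts. Called models lie on both sides of 0 (11 higher, 12 lower), and the 3 largest values belong to the PF07727 reverse transcriptase family, 1 of them with 2 counts in Ls-4mm. These 3 passed the filter on low counts through Ls-6mm alone.

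Domains of cellular proteins included the most abundant of all domain-bearing models. A 1521-base model of chromosome 11 (16999042 to 17000646) with a 14-3-3 domain, of adaptors that bind phosphorylated proteins, had 109.28, 100.06 and 98.38 CPM in Ls-4mm and 163.03, 158.95 and 157.18 CPM in Ls-6mm (log2 fold change 0.64, SE 0.04, adjusted p = 6.29e-10). A 1108-base model of chromosome 4 (17476056 to 17477586) with ribosomal protein S27, of the small ribosomal subunit, had 125.16, 121.64 and 120.24 CPM and then 117.57, 112.63 and 107.67 CPM (-0.12, SE 0.04, adjusted p = 0.0173). This small fall was lost without replicate 3 of Ls-6mm (adjusted p = 0.0981).

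The second longest tested model, of 13607 bases on chromosome 3 (34479014 to 34500667), carried the domains of the kinase SMG-1, which acts in nonsense-mediated mRNA decay in animals. It had 133.03, 126.72 and 124.32 CPM in Ls-4mm and 82.80, 85.29 and 79.60 CPM in Ls-6mm (-0.63, SE 0.04), and the gene 815 bases upstream, BGIOSGA013523, fell by 1.43. A 1712-base model of chromosome 4 with a SWIM zinc finger, a metal-binding fold, fell from 88.4 ± 2.83 to 72.96 ± 2.999 CPM (-0.28, SE 0.05). A 1496-base model of chromosome 2 with the splicing factor 3B subunit 1 domain, of the complex that recognises the branch point of introns, fell from 40.6 ± 3.43 to 16.1 ± 0.945 CPM (-1.33, SE 0.08). By contrast a 3489-base model of chromosome 10 (21362270 to 21369655) with an LSD1 zinc finger, named for a cell death regulator of Arabidopsis, rose from 52.6 ± 2.02 to 82.6 ± 4.90 CPM (0.65, SE 0.05). No base lay between it and the beta-amylase gene BGIOSGA031385, a starch-degrading enzyme, which rose from 0.619 to 2.65 CPM.

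The shortest and the most isolated tested models were low in level, whereas the longest ranged widely. Tested models of 2000 bases and over had a median of 6.66 CPM, against 2.73 CPM for all tested unclassified models. The 13607-base model described above had 128 ± 4.50 and 82.6 ± 2.85 CPM. The longest tested model, of 14695 bases on chromosome 10 (7197382 to 7217305), had 3.04 ± 0.0428 and 3.82 ± 0.451 CPM (0.32, SE 0.17, adjusted p = 0.0980), and a 9851-base model of chromosome 2 (9481446 to 9498391), 3 bases head to head from BGIOSGA006778, 16.6 ± 1.31 and 17.1 ± 0.588 CPM (0.05, SE 0.09). The shortest, of 212 bases on chromosome 3, fell from 0.821 ± 0.360 to 0.0966 ± 0.0718 CPM (-3.01, SE 0.59), and so did the bZIP transcription factor gene BGIOSGA010835 142 bases from it (-1.83). Next to it in size, a 220-base block of chromosome 2 rose from 0.225 ± 0.0867 to 0.982 ± 0.0942 CPM (2.10, SE 0.42). The 212-base model passed the filter on low counts through Ls-4mm alone, and the 220-base block through Ls-6mm alone. Their directions were set by the filter, so the shared fall of the 212-base model and its neighbour says nothing about the pair. A 224-base block of chromosome 8, 160 bases from the chlorophyll a-b binding protein gene BGIOSGA026928, had 2.47, 0.35 and 1.00 CPM and then 2.87, 2.46 and 2.58 CPM (1.08, SE 0.39, adjusted p = 0.0179). Its call was lost without replicate 2 of Ls-4mm (0.0799), without replicate 3 of Ls-4mm (0.0666) and without replicate 1 of Ls-6mm (0.0507).

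The 3 tested models farthest from any annotated gene were each called lower, too few to read a share from. They were a 1017-base model of chromosome 3 with a gap of 48998 bases (2.53 ± 0.848 to 1.40 ± 0.0676 CPM, -0.86), a 940-base block of chromosome 5 at 40447 bases (2.05 ± 0.340 to 0.274 ± 0.319 CPM, -2.75) and a 986-base model of chromosome 11 at 33241 bases (1.31 ± 0.314 to 0.513 ± 0.385 CPM, -1.27). Those of chromosomes 5 and 11 passed the filter on low counts through Ls-4mm, with 2, 13 and 1 and with 7, 19 and 3 counts in Ls-6mm. Their falls were thus shaped by the filter. Without replicate 3 of Ls-4mm the models of chromosomes 3 and 11 lost their calls (adjusted p = 0.0611 and 0.0583), the latter also without replicate 3 of Ls-6mm (0.0515). Of all 323 tested unclassified models over 5000 bases from an annotated gene, 22.9% rose and 43.0% fell. These shares were near the 26.0% and 39.0% of all tested unclassified models, and 38.6% of all tested genes were lower.

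Of the 16 models that enclose annotated genes, the highest was a 5958-base model of chromosome 8 (12734747 to 12758070) with 86.9 ± 4.24 and 83.1 ± 1.13 CPM (-0.06, not called), around BGIOSGA027270, which fell by 0.30. With library size only it was called at -0.20. Another of chromosome 8 (11119117 to 11193564, 4825 bases in a span of 74448) had 96.34, 82.46 and 87.74 CPM in Ls-4mm and 43.19, 41.09 and 46.62 CPM in Ls-6mm (-1.03, SE 0.06), while the enclosed BGIOSGA027325 had no read. A 6195-base model of chromosome 7 (18349151 to 18401141) fell from 59.7 ± 6.38 to 42.7 ± 2.79 CPM (-0.49, SE 0.07), around a triose-phosphate transporter gene, BGIOSGA024206, with 1 count in all. A 5572-base model of chromosome 11 (9742347 to 9787126) had 51.5 ± 9.95 and 43.8 ± 4.15 CPM (-0.23, SE 0.10, adjusted p = 0.0509) and was called without replicate 2 of Ls-4mm (0.00116) or of Ls-6mm (0.0420). The enclosed BGIOSGA035161, on the same strand, fell from 80.4 ± 3.86 to 38.6 ± 1.91 CPM (-1.06, SE 0.05). In the order given, these models overlapped 2, 3, 4 and 3 annotated genes, and only that with the largest overlap is named.

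Unclassified models and their nearest annotated gene moved the same way more often at short distance. Both partners were tested in 864 pairs, whose log2 fold changes had a Pearson r of 0.28 and a Spearman rho of 0.27 across pairs. Among 465 pairs in which both were called, 307 moved the same way (66.0%), and among protein-coding models and their nearest annotated gene 54.6% did (15078 tested pairs, r = 0.24, rho = 0.12). Protein-coding pairs were listed from each model, so genes nearest to each other entered from both sides. Within 1000 bases, the unclassified pairs had r = 0.48 and rho = 0.39 over 374 pairs, with 137 of 191 in the same direction (71.7%), beside r = 0.25, rho = 0.13 and 54.5% in protein-coding pairs. In the next class, up to 5000 bases, the unclassified share was 63.0% (r = 0.21), and beyond 5000 bases 59.5% (r = 0.18). Partners share libraries and neighbourhood, so these correlations are descriptions, and no test was applied.

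The values of the closest pairs also varied with orientation. Within 1000 bases on the same strand, unclassified models upstream of their neighbour gave r = 0.74 and rho = 0.57 over 85 pairs. Of these, 37 of 50 called pairs moved the same way (74.0%). Downstream the values were r = 0.65 and rho = 0.62 over 44 pairs, with 20 of 25 (80.0%). Protein-coding pairs in these positions had r = 0.30 and 0.31 (rho = 0.21 and 0.23), and genes nearest to each other count in both positions. Head to head, with starts facing, the unclassified pairs had r = 0.31 over 103 pairs and protein-coding pairs 0.53. By rho (0.23 and 0.26) and by the share moving the same way (63.6% and 64.2%) both kinds were close. Tail to tail the values were r = 0.36 and rho = 0.37 over 142 pairs, and 0.06 and -0.01 in protein-coding pairs. Unclassified models within 1000 bases of another one had r = 0.94 and rho = 0.76 over 26 tested pairs on the same strand, where 12 of 13 called pairs changed in the same direction, and r = 0.92 and rho = 0.83 over 8 tested pairs on opposite strands, where 5 of 5 did.

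**Figure D5:**
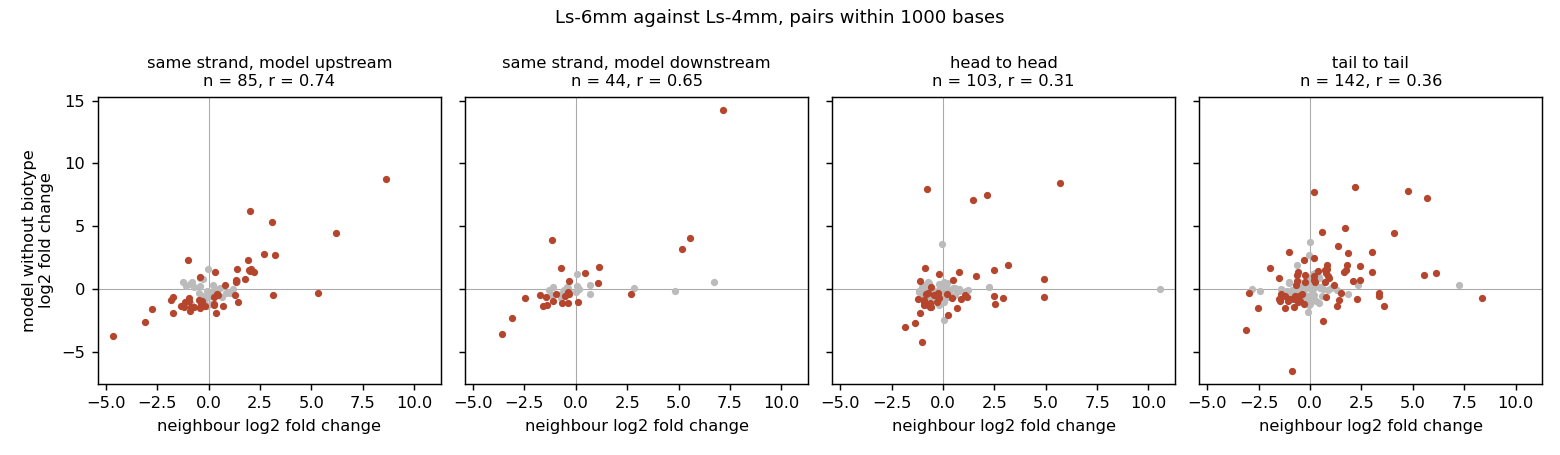
Log2 fold change (Ls-6mm against Ls-4mm) of models without biotype and of their nearest annotated gene within 1000 bases, by orientation; red points are pairs in which both were called. The same-strand panels (r = 0.74 and 0.65) lie closer to a line than the head-to-head and tail-to-tail panels (r = 0.31 and 0.36). By rho the values are 0.57 and 0.62, against 0.23 and 0.37.

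Some pairs, chosen after their values were seen, show the range. A 287-base block of chromosome 1 (9428862 to 9429148), 38 bases tail to tail from BGIOSGA001964, which encodes a RALF peptide, a secreted signal read by receptor kinases, had 3.77, 2.77 and 3.25 CPM in Ls-4mm and 79.27, 71.00 and 63.94 CPM in Ls-6mm (4.46, SE 0.11). The RALF gene rose from 2.69 ± 0.727 to 45.3 ± 7.83 CPM (4.08, SE 0.16). A 733-base model of chromosome 5 (964308 to 965618), 513 bases upstream of the cupin gene BGIOSGA018926, a family that includes seed storage proteins, rose from 46.8 ± 2.41 to 121 ± 8.35 CPM (1.37, SE 0.06), and the cupin gene from 12.5 ± 0.832 to 56.6 ± 1.13 CPM (2.18, SE 0.07). In these pairs both partners were higher in every library of Ls-6mm.

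Opposite changes were also found at short distance. A 433-base block of chromosome 8 (16115065 to 16115497) rose from 11.4 ± 0.490 to 56.9 ± 3.35 CPM (2.31, SE 0.07), while BGIOSGA028479, 262 bases downstream on the same strand, fell from 23.4 ± 1.83 to 11.6 ± 2.84 CPM (-1.01, SE 0.13). A 9167-base model of chromosome 12 (15833250 to 15845074), 3 bases head to head from BGIOSGA036121, fell from 69.1 ± 2.83 to 41.7 ± 1.97 CPM (-0.72, SE 0.05), while that gene rose from 0.296 ± 0.166 to 2.34 ± 0.355 CPM (2.92, SE 0.36). On chromosome 7 a 415-base model (27093350 to 27093809) rose from 55.0 ± 3.92 to 118 ± 4.27 CPM (1.10, SE 0.05) at 48 bases tail to tail from BGIOSGA026410, which fell from 252 ± 22.8 to 164 ± 3.09 CPM (-0.62, SE 0.05).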

How the data were processed

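RNA-seq of anthers was analysed in 3 libraries of Ls-4mm and 3 of Ls-6mm, assigned by their titles. Ls-8.5mm and 36 further columns of values were not used here. The authors aligned paired reads with HISAT2 2.0.5, and the submitters' notes name featureCounts 1.5.0-p3 for the raw count per gene, as deposited. The authors also deposited FPKM values, scaled by gene length and library. Columns of the authors' own stage comparisons (fold changes and p-values) were not used. The assembler behind the unclassified models and the strand setting of counting are not given in the sources used here. Identifiers of these models are serial numbers with a shared prefix, so the models are named by chromosome, position and length.

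The whole table was fitted in R 4.3.3 with edgeR 4.0.16 (filterByExpr with minimum count 10 and minimum total 15, TMM, quasi-likelihood test), with Benjamini-Hochberg adjustment over all 23691 tested genes and calls at adjusted p under 0.05 with any fold. CPM uses TMM-scaled library sizes. SE is the absolute log2 fold change divided by the square root of the quasi-likelihood F value. It is not a fitted standard error and can be too small where a stage has few counts. Ratios with 1 to 3 counts in Ls-4mm have exact (Clopper-Pearson) 95% intervals. The nearest annotated gene was the row with a biotype at the smallest gap between spans. Alternatives were DESeq2 1.42.0, limma 3.58.1 on log2(FPKM + 1) and log2(FPKM + 0.1), RLE factors, library size only, other filters and thresholds, the replicate number as a block, and each library left out.

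Models were named by a rule: the 5 highest of each stage; the 5 largest called rises and falls without overlap at 10 CPM or more; the 3 longest, 3 shortest and 3 most isolated tested models; and the 5 highest that overlap an annotated gene, carry a domain or were not called. Other models named, the 24 of the low-to-high set, the domain groups and the pairs, were chosen after their values were seen. The members and lists were chosen with earlier results of these data known.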

Additional observations from a re-analysis of the deposited data

How the results depend on the processing

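More models fell than rose in most alternatives, but the share called and this excess depended on the limits. DESeq2 called 480 unclassified models higher and 610 lower and kept 864 of the 1019 edgeR calls, but it gave an adjusted p to 2676 models, so its share called was 40.7%. With at least 10 counts in every library 1108 were tested, with 257 higher and 425 lower. At a false discovery rate of at most 0.001 and a 2-fold change, 230 were higher and 224 lower, 29.0% of those tested. Only 454 of the 1019 calls remained there, and falls did not exceed rises. No filter gave 566 and 813, library size only 367 and 707, RLE factors 415 and 596, and limma 454 and 659 or 450 and 655. Leaving out 1 library gave 401 to 455 higher, 585 to 627 lower and 60.5 to 63.3% called, and kept 929 to 956 of the 1019 calls. No alternative turned a called model to the opposite direction. With library size only, the uncalled 3396-base model of chromosome 4 and the uncalled 1062-base model of chromosome 2 reversed to -0.12 and -0.12. The replicate block gave 401 and 595 and kept 989 calls; same-numbered libraries did not deviate together (r = -0.05, -0.03 and -0.01), and no library correlated best with its own number. A count in every library was met by 1827 models. The share of neighbours moving the same way was 71.7% within 1000 bases and 59.5% beyond 5000. By FPKM the level was 1.21% and 1.24% of all. With library size only, 4 more models uncalled by edgeR with TMM were called lower (-0.37 to -0.16). For models named by the rule, 25 alternatives lost a call and 12 gained 1.

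Of unclassified models under 1 CPM 55.3% were called, and of protein-coding models at that level 69.9%. Both shares are partly shaped by the filter on low counts. Annotated lengths are coding lengths, so gaps are upper bounds, and without strand information reads of overlapping models cannot be assigned.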
